A study of Homo sapiens with 6 samples.

Results

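MIAT, also called GOMAFU, and 5 other long non-coding RNAs (lncRNAs) known for staying in the nucleus were followed in the human neuroblastoma line BE(2)-M17, an established line cloned from SK-N-BE(2). The 6 were chosen by symbol: MIAT as the target of the knockdown, and MALAT1, NEAT1, MEG3, TUG1 and KCNQ1OT1 to show whether other nuclear lncRNAs moved with it. All 6 were among the 26372 genes of the table, and all 6 passed the filter that 12164 genes passed, a mean over the libraries of 1 FPKM or more (fragments per kilobase of gene, scaled to the mapped fragments of the library). The series set 3 libraries of cells with GOMAFU knockdown against 3 control libraries, numbered 2, 3 and 4 in both groups, in a study of how miR-137 and GOMAFU act in human neuron differentiation. All were made from polyadenylated RNA of the same line. The labels describe transfection with 100 pmol of small RNA in a lipid reagent, and give neither the sequence used against GOMAFU nor what the controls received. They do not say whether replicates were separate cultures, so each p-value reflects only how much these libraries varied, and that variation may be technical.

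Nuclear lncRNAs work without being translated, often by gathering proteins or by acting on chromatin near the place where they are made. MIAT is a spliced and polyadenylated RNA of neurons that is not exported. MALAT1 collects in nuclear speckles, which store splicing factors, and NEAT1 is the scaffold around which paraspeckles form. MEG3 and KCNQ1OT1 are imprinted RNAs made from one parental allele, and KCNQ1OT1 silences genes around it. TUG1 starts back to back with the MORC2 gene and was named for its induction by taurine in the retina.

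The sequence of MIAT is shown because it differs from the other 5 in a motif that bears on its reported partners. TACTAAC is written UACUAAC in RNA, is the branch point consensus of yeast introns, and is a sequence that the splicing factor SF1 binds. In GENCODE release 29 (GRCh38) the longest MIAT transcript has 10143 bases in 5 exons and holds 7 copies, all within 807 bases of exon 5. The first block below covers chr22:26671409-26671559 and the second chr22:26672172-26672235, both on the plus strand. Each block holds 3 of the copies, and the copy at base 5701 of the transcript lies between them and is not shown. The single copy in NEAT1, at chr11:65428633-65428659 on the plus strand, is given for comparison. Capitals mark the motif.
MIAT first block: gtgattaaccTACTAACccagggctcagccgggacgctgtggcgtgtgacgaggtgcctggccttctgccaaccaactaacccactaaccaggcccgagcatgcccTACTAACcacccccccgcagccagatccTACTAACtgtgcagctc
MIAT second block: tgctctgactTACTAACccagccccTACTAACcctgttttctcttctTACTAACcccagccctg
NEAT1 single copy: gcaaaatgaaTACTAACattacgaaaa

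The longest transcripts of the other members held 0 copies (MALAT1, MEG3, TUG1), 1 copy (NEAT1) and 3 copies (KCNQ1OT1, in 91667 bases). Per kilobase that was 0.69 copies in MIAT, 0.044 in NEAT1 and 0.033 in KCNQ1OT1. A set of 705 genes has a longest annotated transcript at least as long as that of MIAT. Their first 10143 bases held the motif in 18.6%, and 1 of the 705, MIAT itself, held 7 or more. By copies per kilobase, 2 of the 705 (0.284%) stood at or above the MIAT density. The search ran on the transcribed strand. The reverse complement, GTTAGTA, occurred once in MIAT and in 21.8% of the same windows. The shorter ACTAAC, which the RNA-binding protein QKI recognises, lies inside every TACTAAC and was present 14 times in MIAT, against 0 in MALAT1, 5 in NEAT1, 1 each in MEG3 and TUG1, and 17 in the much longer KCNQ1OT1. It was found in 59.6% of the 705 windows. A match is a description of the letters, not a measured binding site.

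**Figure D1:**
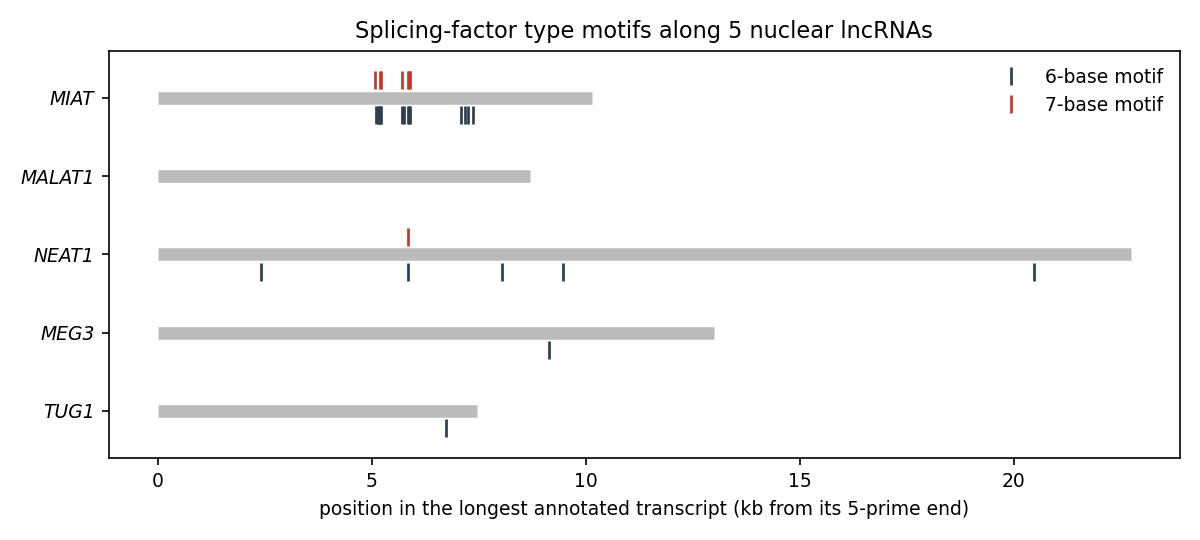
Positions of the 7-base motif (red, above) and the 6-base motif (dark, below) along the longest annotated transcript of 5 lncRNAs, drawn as grey bars in kilobases from the 5-prime end; KCNQ1OT1 is left out for its length. All 7 red marks of MIAT fall within 807 bases near the middle of the transcript, NEAT1 has 1, and MALAT1 has no mark of either kind.

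MALAT1 needs a second sequence, because its mature 3′ end is not made by ordinary polyadenylation. RNase P cuts the transcript just downstream of a run of A encoded in the genome, which folds into a triple helix and protects the end. That run has 13 A in the longest annotated transcript (8708 bases, 1 exon) and is in capitals below, in chr11:65506068-65506140 on the plus strand. NEAT1 likewise has a short polyadenylated form and a long form that ends through RNase P. FPKM from polyadenylated RNA therefore counts, of these 2 genes, what the selection caught, and the table gives 1 value per gene with no split between forms.
MALAT1 end: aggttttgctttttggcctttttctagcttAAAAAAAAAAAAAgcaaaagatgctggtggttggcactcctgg

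FPKM values summed to between 579365 and 637153 per library, and between 11976 and 12314 genes reached 1 FPKM. The depth in reads is unknown. Steps between low values put the libraries at 0.972 to 1.36 times the depth of control replicate 3. Outside that library only 26.5% to 32.5% of the low genes used lay at the most common value, so the estimate is rough. Knockdown replicate 4 stood apart: it correlated with the other libraries at 0.940 to 0.956 over genes, where the rest correlated with each other at 0.983 to 0.997. The 20 interferon markers, all in the table, summed to 475.1, 77.3 and 9647 FPKM in knockdown replicates 2, 3 and 4, against 39.5 to 46.0 FPKM in the controls. Of 8 sympathetic neuroblast markers 6 passed the filter, among them STMN2, HAND2 and PHOX2A. TH stayed under 0.1 FPKM in every library. Glial markers summed to 1.83 to 2.44 FPKM in knockdown libraries and 1.47 to 2.25 FPKM in controls, leukocyte markers to 0.695 to 1.93 and 0.794 to 1.44 FPKM, with CD3E at 0, and endothelial markers to at most 0.0442 and 0.0171 FPKM. Of 4 fibroblast markers 2 passed the filter, DCN and LUM, with COL1A1 and COL3A1 under 1 FPKM. The 4 summed to 72.8 to 85.6 FPKM in knockdown libraries and 58.7 to 83.8 FPKM in controls, most of it DCN.

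MIAT was the lncRNA that set the groups apart most. It lies on chromosome 22 from 26646428 to 26676475, plus strand (ENSG00000225783.7, lincRNA). It was measured at 1.27, 1.32 and 3.21 FPKM in knockdown replicates 2, 3 and 4, against 5.38, 5.96 and 8.57 FPKM in control replicates 2, 3 and 4. All 3 knockdown values lay below the lowest control, and in both groups the highest value was that of replicate 4. Knockdown replicate 4 was also the library with the highest interferon markers, whose part in the MIAT value was not tested; without it the difference given below was -1.71. The knockdown libraries thus held 19.2%, 19.9% and 48.4% of the control mean. In bulk RNA, fewer cells with the transcript and less of it per cell cannot be told apart.

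On the log2(FPKM + 1) scale, which understates changes of low genes, the difference for MIAT was -1.42 (SE 0.27, 95% interval -2.06 to -0.78, limma). It had the smallest unadjusted p of the 12164 genes tested (0.00125), and its adjusted p was 0.9998, short of the threshold of 0.05. No gene passed that threshold (0.00% of genes in either direction), while 2.16% had an unadjusted p under 0.05 (0.970% higher and 1.19% lower in knockdown libraries). The exact two-sided permutation test on FPKM gave p = 0.1, the smallest that 3 against 3 allows. The library weights of limma ranged from 0.153 for knockdown replicate 4 to 7.98 for control replicate 3. With them the difference for MIAT was -1.58 (adjusted p = 0.00299, limma). Under those weights 22 genes passed, and 2854 of 12164 had an unadjusted p under 0.05, against 263 without weights. Without both libraries numbered 4 the difference for MIAT was -1.54 (adjusted p = 0.015, limma).

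**Figure D2:**
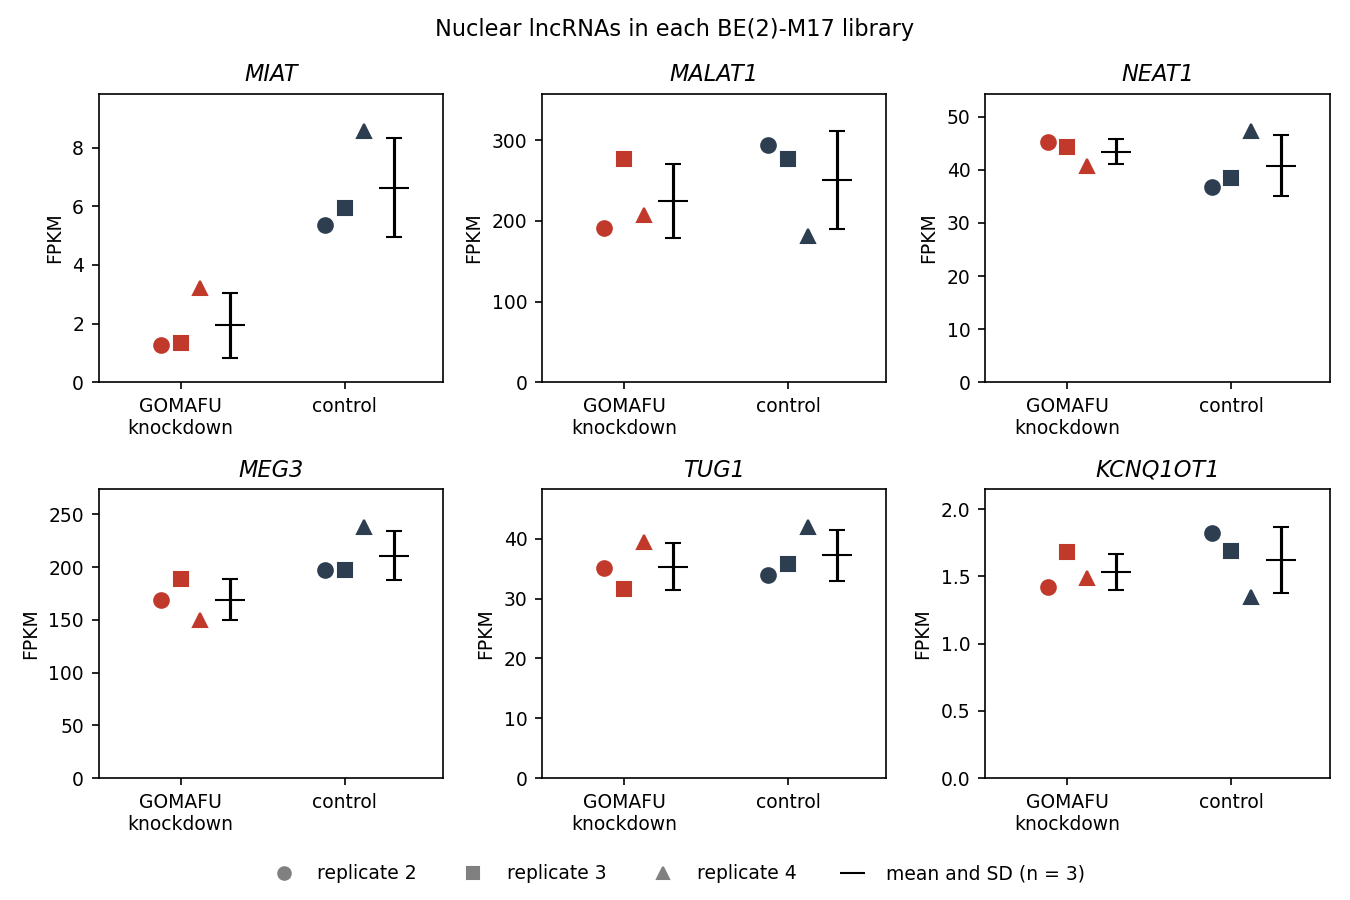
FPKM of each lncRNA in the 3 knockdown libraries (red) and 3 control libraries (dark), with marker shapes for the replicate number and bars for mean and SD; every axis starts at 0. The groups are apart for MIAT (at most 3.21 against at least 5.38 FPKM) and MEG3 (at most 188.8 against at least 197.1 FPKM) and overlap for the other 4.

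MEG3 was the other member whose groups did not overlap. This imprinted RNA spans chromosome 14 from 100779410 to 100861031, plus strand. It stood at 168.8, 188.8 and 149.7 FPKM in knockdown replicates 2, 3 and 4, and at 197.4, 197.1 and 237.8 FPKM in the controls. Every knockdown value was lower than every control, but the gap between the closest libraries was small, and the lowest value came from knockdown replicate 4, which stood apart overall. Of all tested genes 4.35% had all knockdown values below all controls, so 2 such members out of 6 is a count to read with that share in mind. The means were 169.1 ± 19.6 FPKM in knockdown libraries and 210.8 ± 23.4 FPKM in controls (SD, n = 3 each). The difference was -0.32 (95% interval -0.59 to -0.04), with an unadjusted p of 0.0305 and an adjusted p of 0.9998 by limma. A total of 144 genes had a smaller p. The difference was -0.23 without knockdown replicate 4 and -0.14 without both libraries numbered 4. With library weights it was -0.21 (unadjusted p = 0.00574, adjusted p = 0.0893, limma), where 2854 of 12164 genes had an unadjusted p under 0.05.

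Neighbours of MEG3 in the same imprinted region overlapped between the groups. DLK1, a non-canonical Notch ligand made from the paternal allele, was at 322.5, 350.7 and 201.9 FPKM in knockdown replicates 2, 3 and 4, against 375.1, 354.7 and 290.8 FPKM in the controls. MEG9, a further non-coding RNA of the region, was at 6.16, 6.37 and 2.58 FPKM, against 6.56, 6.16 and 6.20 FPKM in controls. RTL1, a retrotransposon-derived coding gene, was at 4.19, 4.07 and 1.24 FPKM, against 4.62, 5.30 and 2.76 FPKM in controls. For each of these 3 the lowest value was knockdown replicate 4. Of the 6 genes listed for the region 4 passed the filter, 0 passed the test in either direction, and their median difference was -0.30, beside -0.01 over all tested genes. Knockdown replicate 4 carried that median: the median of the 4 genes relative to their control means was -0.05, 0.03 and -0.88 in knockdown replicates 2, 3 and 4. Of all 11 tested genes within 1 Mb of MEG3, 9 had differences below 0, with a median of -0.08 and 0 lower without overlap.

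MALAT1 was the most abundant member and varied as much within groups as between them. It lies on chromosome 11 from 65497688 to 65506516. It was at 190.8, 276.9 and 207.1 FPKM in knockdown replicates 2, 3 and 4, and at 293.9, 276.6 and 181.4 FPKM in the controls. The lowest value of all was control replicate 4, and knockdown replicate 3 was level with control replicate 3. The highest control was 1.62 times the lowest. The difference was -0.14 with a 95% interval from -0.65 to 0.37 (unadjusted p = 0.527, adjusted p = 0.9998, limma). It depended on single libraries, at -0.36 without control replicate 4, -0.30 without knockdown replicate 3, -0.09 without knockdown replicate 4, -0.06 without control replicate 3, -0.03 without knockdown replicate 2 and -0.01 without control replicate 2. With library weights it was -0.42 (unadjusted p = 0.00767, adjusted p = 0.101, limma). Under those weights 2854 of the 12164 tested genes had an unadjusted p under 0.05, so this unadjusted p is to be read beside that number.

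NEAT1, whose gene ends upstream of MALAT1 on chromosome 11 (65422774 to 65445540), was at 45.3, 44.3 and 40.8 FPKM in knockdown replicates 2, 3 and 4, and at 36.7, 38.4 and 47.3 FPKM in the controls. The highest value was a control, replicate 4, and the groups overlapped. The difference of 0.10 (95% interval -0.16 to 0.35; unadjusted p = 0.406, adjusted p = 0.9998, limma) was the only fitted difference above 0 among the 6. It was 0.20 without control replicate 4, 0.06 without control replicate 3 and 0.03 without control replicate 2. Without both libraries numbered 4 it was 0.25 (unadjusted p = 0.00339, adjusted p = 0.733, limma). In that setting 753 of 12164 genes had an unadjusted p under 0.05. With library weights it was 0.22 (unadjusted p = 0.00307, adjusted p = 0.0789, limma), where 2854 genes had an unadjusted p under 0.05. Beside the interferon markers, NEAT1 did not stand out: in knockdown replicate 4, where those markers summed to 9647 FPKM, NEAT1 was at 100.03% of its control mean. The ratio of NEAT1 to MALAT1 in FPKM was 0.237, 0.16 and 0.197 in the knockdown libraries and 0.125, 0.139 and 0.261 in the controls, again with control replicate 4 at the far end.

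TUG1 and KCNQ1OT1 overlapped between the groups and had fitted differences close to 0. TUG1, on chromosome 22 from 30969245 to 30979395, was at 35.1, 31.5 and 39.4 FPKM in knockdown replicates 2, 3 and 4, against 33.9, 35.8 and 41.9 FPKM in the controls. In both groups replicate 4 was highest, as for MIAT. The difference was -0.07 (95% interval -0.34 to 0.20; adjusted p = 0.9998, limma), and its sign turned without knockdown replicate 3 (0.0055) or control replicate 4 (0.015). KCNQ1OT1 was the lowest member, at 1.42, 1.68 and 1.48 FPKM in the knockdown libraries and 1.82, 1.69 and 1.35 FPKM in the controls, with a difference of -0.05 (95% interval -0.35 to 0.25; adjusted p = 0.9998, limma) that turned to 0.0067 without control replicate 2. It is 1 unspliced RNA of 91667 bases on the minus strand of chromosome 11 (2608328 to 2699994), inside the span of KCNQ1 on the plus strand. KCNQ1, a potassium channel gene, was listed at 0 in all 6 libraries.

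Of the 12 genes listed for the imprinted region around KCNQ1OT1, 6 passed the filter. None of the 6 passed the adjusted threshold by limma, none had an unadjusted p under 0.05, and their median difference was 0.04. The tetraspanin CD81 averaged 111.5 ± 4.77 FPKM in knockdown libraries and 114 ± 7.06 FPKM in controls, and the growth factor IGF2 30.9 ± 9.31 and 29.3 ± 3.63 FPKM (SD, n = 3 each). The cell cycle inhibitor CDKN1C and PHLDA2, both known targets of this silencing, had means under 1 FPKM over the 6 libraries and were not tested.

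**Figure D3:**
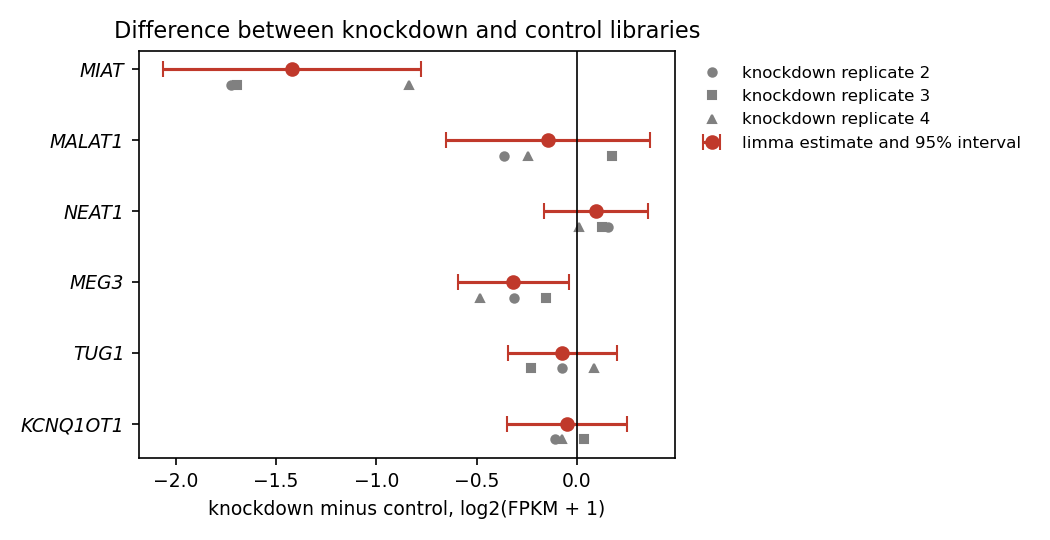
Fitted difference between knockdown and control libraries on the log2(FPKM + 1) scale with its 95% interval (red), and each knockdown library minus the control mean (grey). The interval lies below 0 for MIAT (-2.06 to -0.78) and MEG3 (-0.59 to -0.04), neither with an adjusted p under 0.05, and spans 0 for the other 4.

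Whether MIAT moved apart from the other lncRNAs was tested on the difference itself, as log2(FPKM + 1) of MIAT minus that of the other gene in each library. The knockdown minus control difference of that quantity was -1.28 against MALAT1, -1.51 against NEAT1, -1.10 against MEG3, -1.35 against TUG1 and -1.37 against KCNQ1OT1. In all 5 comparisons the 3 knockdown libraries lay below the 3 controls. Each gave p = 0.1 in an exact two-sided permutation test, the smallest that test allows with 3 against 3, and 0.1 after adjustment over the 5 pairs, so this test could not pass 0.05. The 5 comparisons share the MIAT values and are not independent.

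By FPKM, a level per gene length, the order in control libraries was MALAT1, MEG3, NEAT1, TUG1, MIAT and KCNQ1OT1, with means of 250.6, 210.8, 40.8, 37.2, 6.64 and 1.62 FPKM. MALAT1 and MEG3 overlapped in their values, as did NEAT1 and TUG1. MEG3 and NEAT1 were apart in all 6 libraries, the lowest MEG3 value being 149.7 and the highest NEAT1 value 47.3 FPKM, and so were TUG1 and MIAT. In controls every MIAT value exceeded every KCNQ1OT1 value, but over all 6 libraries they overlapped, since MIAT stood below KCNQ1OT1 in knockdown replicates 2 and 3. MIAT made up 0.288%, 0.243% and 0.727% of the summed FPKM of the 6 lncRNAs in knockdown replicates 2, 3 and 4, against 0.946%, 1.07% and 1.65% in the controls. The control mean of MALAT1 was above that of 97.5% of the tested genes, and that of MIAT above 33.1%.

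Of the tested genes that start within 1 Mb of MIAT, 6 of 6 had fitted differences below 0, as did 53.3% of all tested genes, with a median of -0.16 and a range of -0.29 to -0.04. The groups did not overlap for 2 of the 6, TFIP11 and HPS4, beside 4.35% of all tested genes, and 0 of the 6 passed the adjusted threshold by limma (2 had an unadjusted p under 0.05). The nearest was TPST2, a protein-tyrosine sulfotransferase gene, at 5.56 ± 0.62 FPKM in knockdown libraries and 5.91 ± 1.35 FPKM in controls (difference -0.06). TFIP11, a spliceosome disassembly factor, was at 11.9, 11.7 and 11.4 FPKM in knockdown replicates 2, 3 and 4, against 13.5, 13.1 and 12.9 FPKM in controls, without overlap (difference -0.16, unadjusted p = 0.0434, adjusted p = 0.9998, limma). SRRD was at 13.6 ± 1.16 and 15.3 ± 1.12 FPKM, with overlap. MIATNB, named here after its values were seen because its annotated span shares 3709 bases with that of MIAT on the same strand, was below 1 FPKM in every library, at 0.401, 0.286 and 0.163 FPKM in knockdown replicates and 0.157, 0.475 and 0.267 FPKM in controls.

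Around TUG1, fitted differences were also mostly below 0. Of 25 tested neighbours within 1 Mb, 23 had fitted differences below 0 and the median was -0.17. Without overlap between the groups 8 were lower (32%), beside 4.35% of all tested genes, and 0 passed the adjusted threshold by limma (7 had an unadjusted p under 0.05). MORC2, a chromatin-silencing ATPase whose start lies 0.947 kb from that of TUG1, was at 15.7, 16.7 and 14.8 FPKM in knockdown replicates 2, 3 and 4 and averaged 18.4 ± 0.53 FPKM in controls, all of them higher (difference -0.22, unadjusted p = 0.0233). SMTN, which encodes smoothelin, differed by -0.48. Over chromosome 22 as a whole 230 of 291 tested genes (79%) had differences below 0 with a median of -0.14, and 80 (27.5%) were lower without overlap. The part of this in the MIAT value was not tested; the lowest of the MIAT neighbours, HPS4, singled out after its values were seen, was at -0.29 against -1.42 for MIAT.

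**Figure D4:**
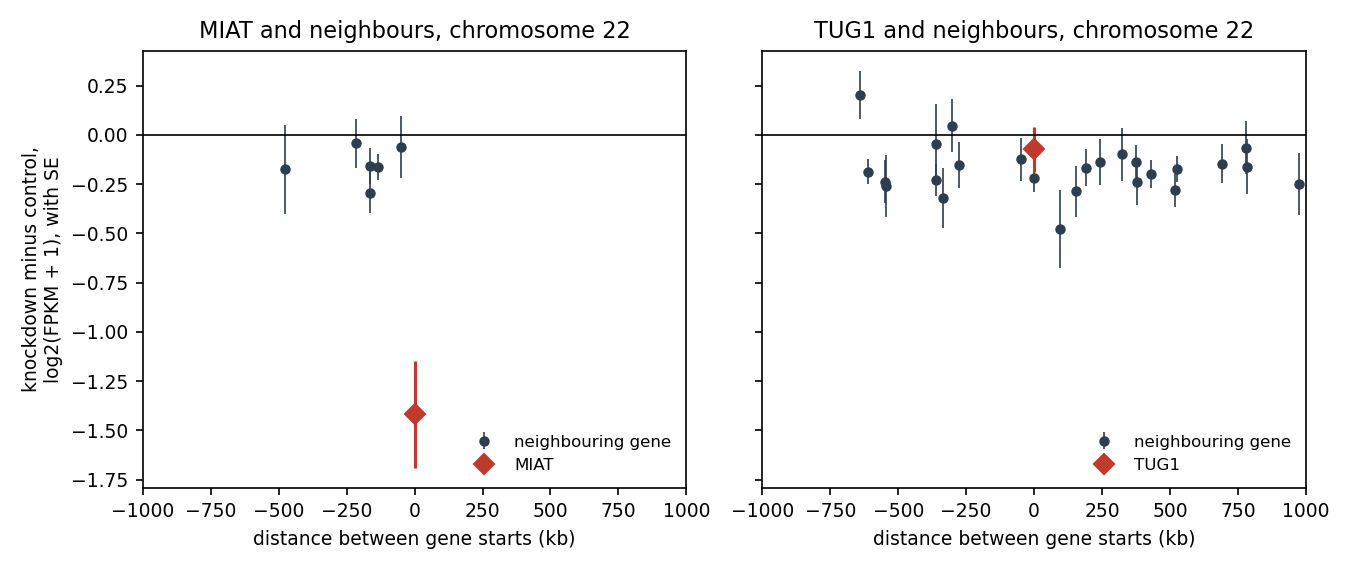
Difference between knockdown and control libraries, on the log2(FPKM + 1) scale with its SE, for tested genes within 1 Mb of MIAT (left) and TUG1 (right), against the distance between gene starts in kilobases. All 6 neighbours of MIAT lie between -0.29 and -0.04 while MIAT is at -1.42, and 23 of 25 neighbours of TUG1 lie below 0 while TUG1 is at -0.07.

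On chromosome 11, neighbours were more evenly split. Of 63 tested genes within 1 Mb of MALAT1, 28 had differences below 0 and 35 above, with a median of 0.0054. LTBP3, a TGF-beta binding protein gene, differed by 0.05. FRMD8, nearest to NEAT1, was at 7.48 ± 0.48 FPKM in knockdown libraries and 7.52 ± 0.72 FPKM in controls (SD, n = 3 each).

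Proteins that work with these RNAs were described from lists. Of 20 paraspeckle proteins, all tested, 0 passed the adjusted threshold in either direction, 15 had differences below 0 and the median was -0.05. SFPQ, a core protein that binds NEAT1 and is named here for that role outside the naming rule, was at 200.5, 190.7 and 175.1 FPKM in knockdown replicates 2, 3 and 4, against 187.8, 192.1 and 206.8 FPKM in controls. HNRNPA1, RBMX and HNRNPK, the most abundant of the list, differed by -0.17, -0.16 and -0.05. Without overlap 2 proteins were lower, HNRNPA1 and EWSR1, and 2 were higher, CPSF7 (0.05) and PSPC1 (0.09), beside 4.35% and 4.01% of all tested genes; all but HNRNPA1 are named after their values were seen. EWSR1 lies on chromosome 22 and differed by -0.18 (unadjusted p = 0.0272, adjusted p = 0.9998, limma).

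Of 25 nuclear speckle proteins 24 were tested, with 0 past the threshold, 14 above 0, 10 below and a median of 0.03. Without overlap 3 were higher and 0 lower, beside 4.01% and 4.35% of all tested genes. The SR protein SRSF2 averaged 220.2 FPKM in knockdown libraries and 230.2 FPKM in controls, LUC7L3 186.4 and 198.5 FPKM, and SRSF3 147.9 and 153.2 FPKM. Among the 4 splicing proteins reported to bind MIAT, SF1 was at 107.7, 111.7 and 100.2 FPKM in knockdown replicates 2, 3 and 4 and at 113.4, 105.7 and 107.8 FPKM in controls, with overlap. QKI, named after its values were seen, was at 4.67, 4.18 and 4.67 FPKM against 3.91, 4.17 and 4.01 FPKM, higher without overlap by a narrow margin, as were 4.01% of all tested genes (adjusted p = 0.9998, limma).

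RNase P subunits, the tRNA-end nuclease ELAC2 and METTL16, which binds the MALAT1 triple helix, made up a list of 11 tested genes with 0 past the threshold and a median of 0.01. Its most abundant members were RPP21 at 48.6 and 54.3 FPKM in knockdown and control libraries, POP7 at 40.0 in both, and RPP30 at 17.2 and 17.3 FPKM. Without overlap 1 of the list was lower, RPP21, and 0 higher, beside 4.35% and 4.01% of all tested genes. Of 15 genes for nuclear RNA decay 14 were tested, with 0 past the threshold and 7 on each side of 0. Of 11 genes for Polycomb repressive complex PRC2 and its partners, which several nuclear lncRNAs have been reported to bind, 0 passed, 4 were above 0 and 7 below. Without overlap 1 of these 11 was higher and 0 lower, beside the same shares of all tested genes.

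Most other lncRNAs known from the nucleus were too low to be tested. Of 18 listed, 16 were in the table and only MEG9 and MEG8 passed the filter. MEG8 was at 2.74, 4.55 and 1.87 FPKM in knockdown replicates 2, 3 and 4, against 3.79, 2.49 and 2.81 FPKM in controls. FTX, a regulator from the X-inactivation centre singled out after its values were seen, reached 1 FPKM in 1 knockdown library and 1 control. A further 8, among them HOTAIR, RMST and FIRRE, were listed at 0 in all 6 libraries. By contrast 13 of 17 listed lncRNAs that are exported or host snoRNAs were tested, with 0 past the threshold, 4 above 0, 9 below and a median of -0.05. The snoRNA host GAS5 averaged 977.7 ± 218.4 FPKM in knockdown libraries and 1004 ± 140.6 FPKM in controls (SD, n = 3 each).

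Genes with a pattern like that of a member were ranked by the root mean square difference over the 6 libraries, on the log2(FPKM + 1) scale and with each profile centred on its own control mean. The nearest to MIAT were HIST1H2BJ (0.57), LINC00526 (0.57), HIST1H1E (0.59), HIST1H4C (0.63) and LOC101928307 (0.63), where the MIAT profile itself departed from its control mean by 1.06. None was therefore close. Of these, 3 encode replication-dependent histones, whose mRNAs normally end in a stem-loop rather than a poly(A) tail. HIST1H4C was at 9.66, 28.4 and 18.0 FPKM in knockdown replicates 2, 3 and 4, against 32.4, 41.2 and 31.8 FPKM in controls.

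For the other lncRNAs the nearest patterns were at smaller distances, and their own profiles were smaller too, departing from their control means by 0.10 (KCNQ1OT1) to 0.29 (MALAT1). MEG3 was nearest to EIF3L (0.05), CDK5 and SUN2 (0.07 each), of which EIF3L and SUN2 lie on chromosome 22. TUG1 was nearest to MTMR3, ALDH5A1 and MXI1 (0.03 each), of which MTMR3 lies on chromosome 22, as TUG1 does. NEAT1 was nearest to FBXO10 (0.03), USP45 and SUGP2 (0.05 each), and MALAT1 to PILRB, ACTA2 (0.09 each) and PALM3 (0.10). KCNQ1OT1 was nearest to PPP1R12C, NDUFV2 and POLR1C (0.02 each). Among the members, the smallest distance was that of NEAT1 and TUG1 (0.18), but it was larger than the departure of either from its own control mean (0.14 each). MIAT was 0.87 to 1.12 from each of the others. All profiles come from the same 6 libraries and one scaling, so these distances describe the libraries only.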

How the data were processed

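Values were the FPKM that the authors deposited, 1 column per library, made with TopHat2 and Cuffdiff on hg38 per the submitters' processing notes; tool versions, annotation and strand setting: not given in the sources used here. Because the unit is scaled to a library total, a few very abundant transcripts can lower all others in a library, and reads of overlapping genes on either strand may be shared. Per the labels' protocols, paired reads of 150 bases were collected. Groups and replicate numbers came from the titles.

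Genes averaging 1 FPKM or more over the 6 libraries were tested with limma 3.58.1 in R 4.3.3 (log2(FPKM + 1), eBayes with trend, two-sided, knockdown minus control, no covariate), with Benjamini-Hochberg adjustment over all 12164 and a threshold of 0.05. Single values were tested by exact permutation of 3 against 3. The limma step was tested on simulated data, with independent noise and no library that stood apart. Members and lists were chosen with earlier results of these data known. Named genes are the members, the 3 most abundant per list, the 3 nearest tested neighbours and the nearest patterns (5 for MIAT, 3 for others), and a few marked as singled out. Positions and transcripts are from GENCODE 29 (GRCh38), matched for 94.9% of tested genes; the miRNA sequence is from RefSeq (GRCh38.p14). Alternatives were a pseudocount of 0.1, no filter, 2 other scalings, a block for the replicate number, library weights, and libraries left out.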

Additional observations from a re-analysis of the deposited data

How the results depend on the processing

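MIAT was below 0 under all 13 alternatives, from -1.83 with a pseudocount of 0.1 to -1.24 without control replicate 4, with adjusted p from 0.00299 to 1 (limma). It passed the threshold with library weights (-1.58) and without both libraries numbered 4 (-1.54); with 1 library left out it ran from -1.71 to -1.24 and never passed. MALAT1 (-0.42 to -0.01) and MEG3 (-0.40 to -0.14) stayed below 0 and NEAT1 (0.03 to 0.25) above it under all 13, none past the threshold. TUG1 turned to 0.0055 without knockdown replicate 3 and 0.015 without control replicate 4, and KCNQ1OT1 to 0.0067 without control replicate 2 (leaving 1 library out, -0.15 to 0.015 and -0.13 to 0.0067); the cause was not tested. MIAT minus each other lncRNA kept its sign under all 10 alternatives run (-1.92 to -0.88 over the 5 pairs). Genes past the threshold numbered 0 as reported, 22 with library weights, 5 with no filter and 1 without both libraries numbered 4, and 0 under the other 10. No label says whether libraries of the same number were paired, and correlations among 3 libraries per group cannot decide it. Deviations of same-numbered libraries correlated at 0.092, 0.168 and 0.322 for numbers 2, 3 and 4. Knockdown replicates 2 and 3 correlated best with controls of another number. Knockdown replicate 4 correlated best with control replicate 4, and at -0.260 and -0.213 with control replicates 2 and 3. With the replicate number as a block MIAT had the same difference (-1.42, adjusted p = 0.194, limma) and 0 genes passed. Only a target depth is given, not the depth reached, which limits what can be said of KCNQ1OT1 and MIAT at 1 to 2 FPKM.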

Other observations

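The series title joins GOMAFU with miR-137, so the 7-base complement of the miR-137 seed, AGCAATA, was looked for in the longest transcript of each lncRNA, on the transcribed strand. The mature miR-137-3p is given by RefSeq at chr1:98046091-98046113 on the minus strand (GRCh38.p14). Its seed, bases 2 to 8, is in capitals.
hsa-miR-137-3p: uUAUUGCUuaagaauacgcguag

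The letters were not present in the longest MIAT, MALAT1 or NEAT1 transcript, and occurred once in TUG1, 2 times in MEG3 and 9 times in the much longer KCNQ1OT1. Per kilobase that was 0.134 copies in TUG1, 0.154 in MEG3 and 0.098 in KCNQ1OT1. The same letters were found in 45.7% of the 705 windows of 10143 bases used for the other motifs. The TUG1 match lies in exon 3 at chr22:30975410-30975436, plus strand (GRCh38), with the match in capitals. The level of miR-137 was not measured here, so the matches describe letters only.
TUG1 match: tgccccagacAGCAATAtgtttgacct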
